A study of Homo sapiens with 17 samples.

Results

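ARID1A occupancy after thyroid hormone (T3) was set against ARID1A occupancy after vehicle in Nthy-ORI cells, a cultured line of normal human thyroid epithelium. The members were the regions in the 2 deposited ARID1A peak lists on chromosomes 1 to 22 and X, 90666 regions of the 266724 in all 8 lists of the series. The T3 list held 41690 regions and the vehicle list 48976. Regions that touched the opposite list by 1 bp or more were called shared; the rest were T3-only or vehicle-only.

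Each list came from 2 of the series' 17 CUT&RUN libraries, a method in which an antibody-tethered nuclease releases the DNA bound by a protein. T3-treated cells had 10 nM T3 for 6 h and vehicle-treated cells NaOH for 6 h, by the sample tags; the protocol text also names a longer time. Both groups were the same unmodified line, starved of hormone beforehand in medium with charcoal-stripped serum, and 500000 cells went into each reaction. The other lists, for BRG1, PBRM1 and the thyroid hormone receptor TRb, were used only where they bore on ARID1A. One line, 1 dose and 1 time were available, and nothing in the labels says that the libraries of a group came from separate cultures.

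SWI/SNF complexes use ATP to slide or evict nucleosomes. ARID1A is the large DNA-binding subunit that marks the BAF form of the complex, PBRM1 marks the PBAF form, and BRG1, encoded by SMARCA4, is an ATPase that both forms can carry. Thyroid hormone receptors sit on DNA with retinoid X receptors and exchange corepressors for coactivators when T3 binds, and SWI/SNF is among the remodelers known to work at such sites.

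A list holds only peaks found in both libraries of its condition, so a one-condition region was absent from the joint list of the other condition, not necessarily from each of its libraries. There was 1 list per condition, and no test between conditions was possible. Shares are given with exact (Clopper-Pearson) 95% intervals, which cover counting error across regions and not the spread between cultures. The 2 signal values of a region, 1 per library, are the authors' own and were compared only within a list. Sequencing depth was not given in the sources used here.

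The promoters below carry the strongest one-condition signals, so they show what kind of promoter sequence lay under a T3-only or a vehicle-only region. The 5 windows of each kind were taken by a fixed rule, the highest lower-of-both-libraries percentile within the list, and run 250 bases before to 50 after the transcription start in RefSeq (GRCh38.p14), on the gene's strand. Capitals mark any match, on either strand, to TGACTCA (AP-1), GGAATG (TEAD), CCGGAAGT (ETS), TGACGTCA (CRE), GGGCGG (SP/KLF) or AGGTCA (the core motif of nuclear receptors).
Under T3-only regions lay the promoters of KRTAP10-6, a keratin-associated protein (chr21:44592456-44592755, minus strand), FOXQ1, a forkhead transcription factor (chr6:1311848-1312147, plus strand), GEMIN4, a component of the SMN complex (chr17:752215-752514, minus strand), STK4, the MST1 kinase of the Hippo pathway (chr20:44966262-44966561, plus strand), and EFHD2, a calcium-binding protein (chr1:15409638-15409937, plus strand).
KRTAP10-6: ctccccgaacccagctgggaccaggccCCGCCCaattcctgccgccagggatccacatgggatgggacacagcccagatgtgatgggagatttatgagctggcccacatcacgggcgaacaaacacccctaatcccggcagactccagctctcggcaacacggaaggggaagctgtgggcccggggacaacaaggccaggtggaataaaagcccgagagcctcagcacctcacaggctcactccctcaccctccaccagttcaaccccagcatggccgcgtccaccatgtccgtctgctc
FOXQ1: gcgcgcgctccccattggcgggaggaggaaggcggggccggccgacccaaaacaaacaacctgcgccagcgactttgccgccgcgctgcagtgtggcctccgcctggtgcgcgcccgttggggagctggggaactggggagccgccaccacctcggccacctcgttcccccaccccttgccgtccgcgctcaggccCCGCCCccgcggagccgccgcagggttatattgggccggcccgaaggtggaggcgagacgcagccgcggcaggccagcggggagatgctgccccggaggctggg
GEMIN4: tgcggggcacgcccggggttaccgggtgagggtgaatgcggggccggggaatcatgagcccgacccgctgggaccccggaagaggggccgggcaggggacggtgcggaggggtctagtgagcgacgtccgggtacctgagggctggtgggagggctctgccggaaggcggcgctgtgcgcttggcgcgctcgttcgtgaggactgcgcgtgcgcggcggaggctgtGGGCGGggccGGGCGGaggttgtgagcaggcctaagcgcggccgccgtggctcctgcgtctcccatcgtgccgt
STK4: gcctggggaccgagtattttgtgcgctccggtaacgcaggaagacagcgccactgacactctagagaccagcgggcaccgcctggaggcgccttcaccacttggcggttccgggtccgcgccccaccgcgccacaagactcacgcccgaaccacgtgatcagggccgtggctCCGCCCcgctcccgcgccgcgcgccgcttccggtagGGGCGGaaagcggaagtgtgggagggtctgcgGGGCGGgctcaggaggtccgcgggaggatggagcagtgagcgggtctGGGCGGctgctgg
EFHD2: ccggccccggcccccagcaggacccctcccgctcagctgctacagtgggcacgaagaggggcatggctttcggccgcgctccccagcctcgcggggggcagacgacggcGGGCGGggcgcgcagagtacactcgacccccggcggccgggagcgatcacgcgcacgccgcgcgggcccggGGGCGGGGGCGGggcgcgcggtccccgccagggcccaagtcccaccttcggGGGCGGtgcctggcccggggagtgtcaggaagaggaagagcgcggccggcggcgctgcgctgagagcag
Under vehicle-only regions lay the promoters of TYMP, thymidine phosphorylase (chr22:50530036-50530335, minus strand), CHAF1A, the large subunit of the CAF-1 histone chaperone (chr19:4402390-4402689, plus strand), DIP2C (chr10:689619-689918, minus strand), IRF2BP1, a transcriptional corepressor (chr19:45886092-45886391, minus strand), and LOC124902704 (chr11:69657866-69658165, minus strand).
TYMP: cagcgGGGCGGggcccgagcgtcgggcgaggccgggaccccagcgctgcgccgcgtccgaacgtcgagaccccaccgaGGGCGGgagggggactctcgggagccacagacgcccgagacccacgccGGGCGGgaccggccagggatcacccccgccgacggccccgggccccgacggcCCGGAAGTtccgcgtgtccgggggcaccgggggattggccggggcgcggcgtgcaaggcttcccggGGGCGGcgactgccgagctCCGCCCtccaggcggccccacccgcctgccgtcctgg
CHAF1A: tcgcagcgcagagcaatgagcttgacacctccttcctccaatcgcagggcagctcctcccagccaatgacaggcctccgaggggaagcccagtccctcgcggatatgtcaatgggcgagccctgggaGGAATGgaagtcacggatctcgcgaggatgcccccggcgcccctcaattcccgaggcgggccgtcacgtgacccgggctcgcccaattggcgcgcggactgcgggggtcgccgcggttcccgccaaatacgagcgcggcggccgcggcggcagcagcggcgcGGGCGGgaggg
DIP2C: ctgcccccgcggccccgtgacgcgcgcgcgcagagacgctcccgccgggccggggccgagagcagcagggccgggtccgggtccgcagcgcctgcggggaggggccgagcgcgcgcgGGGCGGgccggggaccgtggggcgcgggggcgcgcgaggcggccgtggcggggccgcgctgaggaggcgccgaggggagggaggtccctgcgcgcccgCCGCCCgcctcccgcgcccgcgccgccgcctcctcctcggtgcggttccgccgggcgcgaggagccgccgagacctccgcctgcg
IRF2BP1: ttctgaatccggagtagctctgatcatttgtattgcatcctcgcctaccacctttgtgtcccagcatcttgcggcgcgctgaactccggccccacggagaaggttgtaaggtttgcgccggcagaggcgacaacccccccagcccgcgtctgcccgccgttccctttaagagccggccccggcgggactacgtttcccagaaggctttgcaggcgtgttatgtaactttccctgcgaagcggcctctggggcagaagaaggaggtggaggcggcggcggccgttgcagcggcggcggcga
LOC124902704: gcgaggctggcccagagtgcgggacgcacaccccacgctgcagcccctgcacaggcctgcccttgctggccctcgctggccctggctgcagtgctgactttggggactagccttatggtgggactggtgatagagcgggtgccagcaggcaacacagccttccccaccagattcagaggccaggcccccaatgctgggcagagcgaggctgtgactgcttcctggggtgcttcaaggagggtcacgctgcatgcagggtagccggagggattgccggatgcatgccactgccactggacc

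The windows of both kinds were rich in G and C. GC content was 62.7% at KRTAP10-6, 74.7% at FOXQ1, 74.0% at GEMIN4, 71.0% at STK4 and 79.0% at EFHD2, against 80.7% at TYMP, 70.3% at CHAF1A, 86.0% at DIP2C, 63.3% at IRF2BP1 and 66% at LOC124902704. An SP/KLF match stood in all 5 T3-only windows printed and in 3 of the 5 vehicle-only windows, IRF2BP1 and LOC124902704 being the exceptions. TYMP also held an ETS match and CHAF1A a TEAD match.

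The T3-only region over KRTAP10-6 (chr21:44591062-44593033) had signal values of 14.8 and 11.7 in the 2 T3 libraries, and the nearest vehicle region lay 8390 bp away. The one over FOXQ1 (chr6:1311622-1313344) had 11.5 and 15.5, with the nearest vehicle region 12414 bp away. STK4 (chr20:44965983-44967440) had 12.03 and 10.8, with the nearest vehicle region 5333 bp away. The vehicle-only region over TYMP (chr22:50528735-50532003) had 14.9 and 19.1 in the 2 vehicle libraries, a lower percentile of 99.3 in that list, yet its nearest T3 region was 1466 bp off. CHAF1A (chr19:4400932-4402798) had 13.1 and 12.8 and lay 144 bp from a T3 region.

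RefSeq windows matched 15712 of the 19974 protein-coding genes, with none on chromosome 8. T3-only regions alone covered 1495 of the windows (9.52%), vehicle-only regions alone 974 (6.2%), shared regions 6176 (39.3%), both one-condition kinds 9, and no ARID1A region the remaining 7058. T3-only and vehicle-only promoters had nearly the same composition, with median GC contents of 65.3% and 65.0%, against 68.0% under shared regions and 54.7% where ARID1A was not listed. SP/KLF matches were in 68.5% of T3-only windows (66.1 to 70.8%), in 69.2% of vehicle-only windows (66.2 to 72.1%), in 80.3% of shared windows and in 58.5% of all windows. ETS matches were in 9.36% and 8.73%, against 6.16% of all windows, and AP-1 matches in 2.41% and 2.77%, against 3.68%. The direct repeat of AGGTCA with a spacer of 4, the classic thyroid response element, was in none of the windows under ARID1A regions in this exact spelling, and in 0.00636% of all windows. None of the motif shares differed between T3-only and vehicle-only promoters by more than their intervals.

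BRG1 listing, unlike the motif shares, differed between the 2 kinds of promoter by more than the intervals. With T3, BRG1 was listed at 73.4% of T3-only promoter windows (71.1 to 75.6%) and at 59.3% of vehicle-only windows (56.2 to 62.5%), against 94.3% of shared windows and 16.9% of windows without ARID1A. The T3 list of PBRM1 covered 72.5%, 65.1% and 89.6% of the T3-only, vehicle-only and shared windows.

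A large part of each ARID1A list was found in 1 condition only, and those regions were mostly weak and narrow. T3-only regions numbered 19399, or 46.5% of the T3 list (46.1 to 47.0%), and vehicle-only regions 25284, or 51.6% of the vehicle list (51.2 to 52.1%). T3-only regions had a median width of 640 bp against 931 bp for the shared regions of the T3 list, and vehicle-only regions 591 bp against 792 bp in the vehicle list. In the T3 list, 71.4% of the lowest signal decile and 5.33% of the highest were T3-only. In the vehicle list, 72.6% of the lowest decile and 6.47% of the highest were vehicle-only. Among regions over 2000 bp wide, 67 of 1695 in the T3 list (3.95%) and 22 of 1146 in the vehicle list (1.92%) were in 1 condition only.

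**Figure D1:**
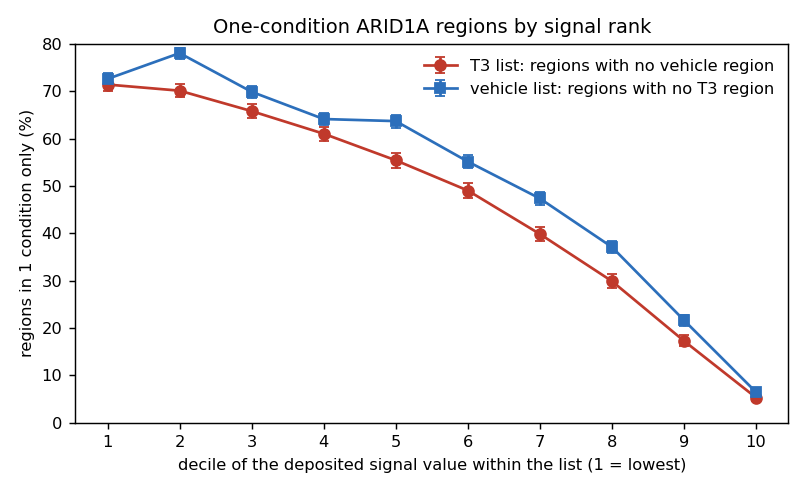
Share of ARID1A regions listed in 1 condition only (y axis, %) by decile of the deposited signal value within the list (x axis, 1 lowest), for the T3 list (circles) and the vehicle list (squares). Bars are exact 95% intervals; both curves end near the bottom, at 5.33% for T3 and 6.47% for vehicle in the highest decile.

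The T3 list was shorter, but its regions were wider. It covered 37.4 Mb, against 37.8 Mb for the vehicle list, a ratio of 0.988 where the ratio of region numbers was 0.851. In the T3 list 2926 regions overlapped 2 or more vehicle regions, while 1769 vehicle regions overlapped 2 or more T3 regions. At an irreproducible discovery rate (IDR, the expected share of peaks not repeated between libraries) of 0.01 in place of the lists' 0.05, the order turned, with 24810 T3 regions and 23179 vehicle regions, a ratio of 1.07. Which condition had more ARID1A regions therefore depended on the limit. The libraries of a condition ranked regions only loosely alike: Spearman's rho between the 2 signal values was 0.21 over the T3 list and 0.16 over the vehicle list, across regions chosen for being found in both.

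The strongest T3-only region lay inside CAMTA1, a calmodulin-binding transcription activator (chr1:7703735-7705938). Its signal values were 19.04 and 13.8, the lower of its percentiles in the T3 libraries was 96.8, and no vehicle region was closer than 20745 bp; BRG1 was listed there with T3 and with vehicle, and PBRM1 with T3. A region 1993 bp outside NTSR1, the neurotensin receptor gene (chr20:62763621-62765907), had 16.1 and 11.7 and lay in none of the other lists. Inside SLC6A7, a proline transporter gene, chr5:150208389-150211033 had 11.97 and 14.8, with BRG1 and PBRM1 listed in both conditions. A region near HPDL (chr1:45303182-45304284) had 15.1 and 11.5 and was the one of the top 10 where TRb was listed, with T3 and with vehicle. The remaining 6 lay in or near CFAP46, FCGR2A, LOC124905027, KRTAP10-6, NXN and HMGXB3, and the one in CFAP46 was 44 bp from a vehicle region.

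Of the 10 strongest vehicle-only regions, 5 were on chromosome 19, in or beside RFX2, CHAF1A, SPINT2, THOP1 and PAK4. Chromosome 19 held 1725 of all 25284 vehicle-only regions. The region in THOP1, a peptidase gene (chr19:2811542-2814093), had 9.84 and 12.6 in the vehicle libraries, with the nearest T3 region 5540 bp away and none of the other proteins listed. One region (chr17:31723164-31725066) had 11.2 and 11.9, lay 29725 bp from any T3 region, and had no protein-coding gene within 100 kb. The regions at ESPN, RFX2, CHAF1A and SPECC1 lay only 76, 93, 144 and 179 bp from a T3 region, so 4 of the 10 stood directly beside ARID1A regions listed with T3. Over all vehicle-only regions, 12.3% lay within 500 bp of a T3 region.

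The balance between T3-only and vehicle-only regions differed between chromosomes. T3-only regions were 43.4% of all one-condition regions. They were the majority on 6 chromosomes (on 12 at IDR 0.01 and on 10 with lists of equal length, the same 6 ranking first), with 62.5% on chromosome 20 (60.4 to 64.6%; 1346 T3-only and 807 vehicle-only), 57.3% on chromosome 5, 56.9% on chromosome 21, 56.4% on chromosome 10, 56.2% on chromosome 7 and 53.7% on chromosome 17. The lowest shares were 25.9% on X (22.3 to 29.7%; 143 and 410), 26.98% on chromosome 18 and 29.9% on chromosome 19 (28.1 to 31.7%; 735 and 1725). The 6 and these 3 were picked by the same shares, so the distance between their intervals follows from the choice and is no separate result.

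**Figure D2:**
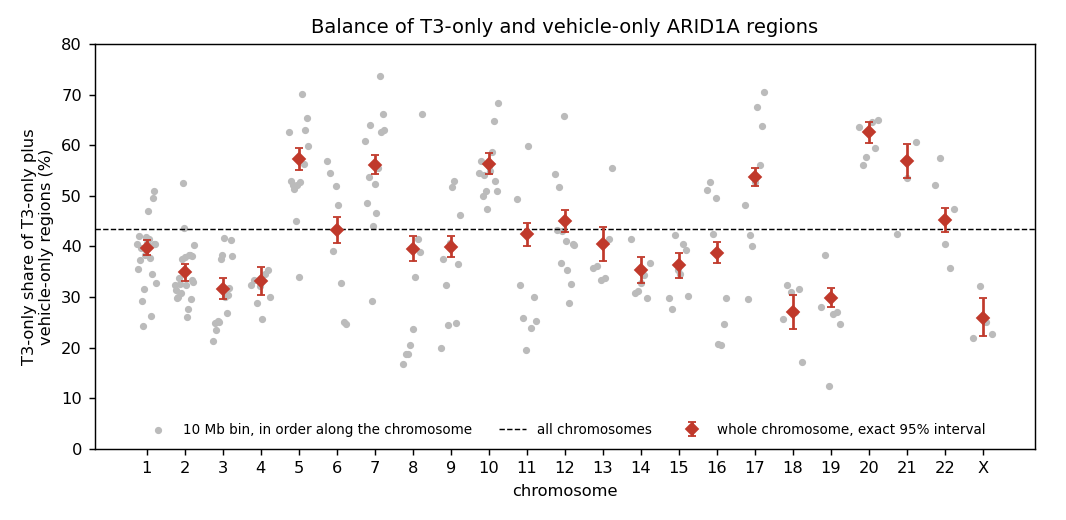
T3-only share of one-condition ARID1A regions (y axis, %) for each chromosome (x axis). Diamonds are whole chromosomes with exact 95% intervals, grey points the 10 Mb bins with at least 50 one-condition regions in their order along the chromosome, and the dashed line the share over all chromosomes, 43.4%; chromosomes 5, 7, 10, 17, 20 and 21 lie above 50%.

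Together the 6 chromosomes held 14317 T3 regions and 13098 vehicle regions, a ratio of 1.09, while the other 17 held 27373 and 35878, a ratio of 0.763. The 6 held 38.7% of all T3-only regions and 22.5% of all vehicle-only regions, which restates how they were picked. At IDR 0.01 the ratio of T3 to vehicle regions ran from 1.28 to 1.53 on the 6 chromosomes and from 0.746 to 1.16 on the others. Shared regions on the 6 chromosomes had median percentiles of 64.9 and 68.9 in the 2 T3 libraries, against 61.5 and 62.9 on the others. In the vehicle libraries the medians were 61.0 and 65.1 on the 6, against 65.99 and 65.90 on the others, the first library differing more than the second.

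BRG1 ran the same way over a much smaller range. Its T3 to vehicle ratio was 0.901 on the 6 chromosomes (0.882 to 0.952 by chromosome) and 0.858 on the other 17 (0.795 to 0.914). Over the 23 chromosomes Spearman's rho between the ARID1A and BRG1 ratios of T3 to vehicle regions was 0.78. Both ratios came from the same cell line, but from separate libraries. The reason for this rho was not tested. The PBRM1 ratio was 4.39 and 4.10, with overlapping ranges as for BRG1, and its rho with the ARID1A ratio was 0.20. The number of genes per Mb gave a rho of 0.20 with the ARID1A T3-only share. The part of the BRG1 difference in the ARID1A balance was not tested.

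The balance also varied within chromosomes. Of 308 bins of 10 Mb, 219 had at least 50 one-condition regions, and their T3-only shares ran from 12.5 to 73.7% with a median of 38.3%. Adjacent bins of the same chromosome had a rho of 0.70 over 157 pairs. The pairs were pooled over chromosomes without removing each chromosome's mean. Differences between chromosomes therefore enter this rho, and it cannot show by itself that neighbours were alike within a chromosome. Differences between chromosomes made up 55.6% of the variance of the bins. Over the 219 bins the T3-only share had a rho of 0.38 with the BRG1 ratio and of 0.30 with the PBRM1 ratio. The 3 highest bins were on chromosome 7 at 120 to 130 Mb (73 T3-only, 26 vehicle-only), chromosome 17 at 80 to 90 Mb (248 and 104) and chromosome 5 at 140 to 150 Mb (143 and 61). The 3 lowest were on chromosome 19 at 20 to 30 Mb (7 and 49), chromosome 8 at 0 to 10 Mb (16 and 79) and chromosome 18 at 70 to 80 Mb (16 and 77).

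Some chromosomes with an ordinary total held both extremes, and the blocks given here were chosen after the bins were seen. On chromosome 8 T3-only regions were 19.3% from 0 to 50 Mb (109 and 456 vehicle-only) and 56.9% from 120 to 150 Mb (401 and 304). On chromosome 6 they were 51.0% from 0 to 50 Mb and 27.04% from 100 to 170 Mb. Chromosome 16 had 49.5% from 0 to 40 Mb and 26.1% from 50 to 100 Mb. Chromosome 17, one of the 6, had 37.0% from 10 to 40 Mb and 64.8% from 50 to 90 Mb. BRG1 ratios in the paired blocks were 0.845 and 0.872 on chromosome 8, 0.925 and 0.868 on chromosome 6, 0.838 and 0.806 on chromosome 16, and 0.822 and 0.892 on chromosome 17.

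Counted by gene, more genes had a net loss than a net gain of ARID1A regions with T3. Each region was given to 1 protein-coding gene, the one holding its midpoint or else the nearest within 25 kb. A region of either list fell to 14694 of 19974 genes. T3-only regions outnumbered vehicle-only regions at 4236 genes (21.2%), and the reverse held at 6105 (30.6%). Several regions, 3 or more, were gained with none lost at 275 of the 4478 genes with at least 3 one-condition regions (6.14%), and several were lost with none gained at 605 (13.5%). These totals follow the list lengths: at IDR 0.01 the counts were 297 gaining and 180 losing, and with lists of equal length 416 and 365.

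Gene gains and losses were divided by chromosome like the regions. The 6 chromosomes were picked for their T3-only majority, and the gene counts use the same regions. The split by gene therefore restates the chromosome balance and is no separate result. The 6 chromosomes held 28.5% of the 4478 genes, 54.9% of the 275 gaining genes and 9.92% of the 605 losing genes. Of the genes on them, 11.8% gained several regions and 4.69% lost several. On the other 17 chromosomes 3.88% gained several and 17.03% lost several. More BRG1 regions with T3 than with vehicle were found at 82 of the 275 gaining genes (29.8%, 24.5 to 35.6%). The same held at 128 of the 605 losing genes (21.2%, 17.97 to 24.6%) and at 23.3% of all 4478. BRG1 counts thus rose with ARID1A at a minority of the gaining genes. Losing genes with fewer BRG1 regions with T3 were not counted apart from those with equal numbers.

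**Figure D3:**
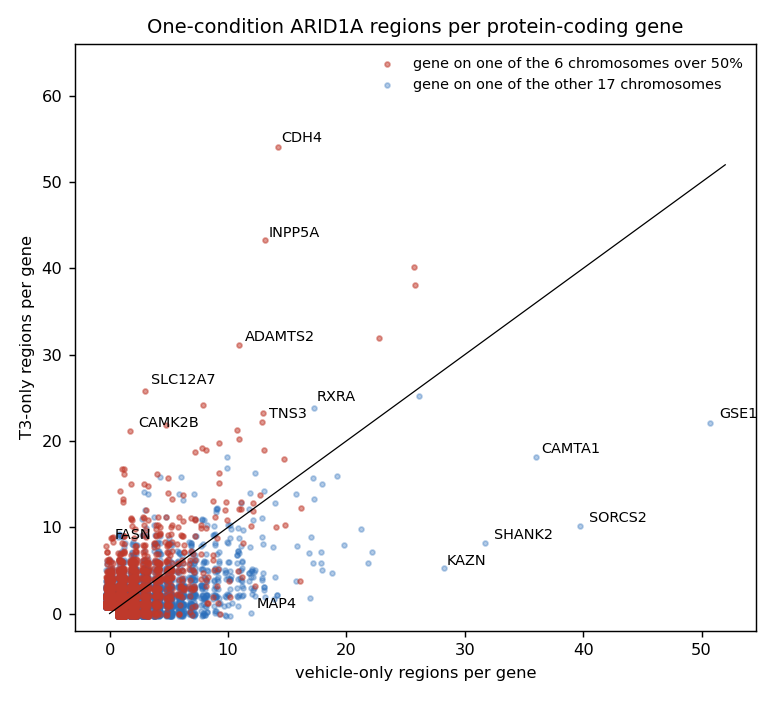
T3-only regions (y axis) against vehicle-only regions (x axis) for each protein-coding gene with a one-condition ARID1A region, each point moved slightly at random so that equal counts can be seen. Genes on the 6 chromosomes over 50% lie mostly above the line of equal counts at the high end, with CDH4 at 54 and 14, and GSE1 at 22 and 51 lies far below it.

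The largest net gains were all on chromosomes 5, 7, 10, 17 and 20. CDH4, R-cadherin, a calcium-dependent adhesion protein (chr20:61252261-61940617), had 54 T3-only and 14 vehicle-only regions besides 15 shared ones. INPP5A, an inositol phosphatase (chromosome 10), had 43 and 13. SLC12A7, the KCC4 potassium-chloride cotransporter, and ADAMTS2, which processes procollagen, both on chromosome 5, had 26 and 3, and 31 and 11. CAMK2B, a calmodulin-dependent kinase on chromosome 7, had 21 and 2, and SLC9A3, the NHE3 sodium-proton exchanger, 17 and 1. BRG1 counts at these genes did not run in 1 direction: CDH4 had 21 BRG1 regions with T3 and 18 with vehicle, SLC12A7 6 and 7, and INPP5A 14 and 21. ZMIZ1, a PIAS-like coregulator, TBCD, a tubulin-folding cofactor, KNDC1 and SH3PXD2A completed the 10.

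The largest net losses were on chromosomes 1, 4, 9, 11, 16, 18, 19 and 22. SORCS2, a sortilin-related receptor (chr4), had 10 T3-only and 40 vehicle-only regions, and SHANK2, a synaptic scaffold, 8 and 32. GSE1, a member of CoREST-type corepressor complexes, had 22 and 51 besides 33 shared regions; its BRG1 regions numbered 41 with T3 and 67 with vehicle. KAZN, a desmosome-associated protein, had 5 and 28, CAMTA1 18 and 36, and SBNO2, a transcriptional coregulator, 2 and 17. The others were TBC1D22A, CMIP, CTIF and DAB2IP. Most of the genes at both ends were long; CDH4 spans 688357 bp and SORCS2 550290 bp, while SBNO2 spans 66631 bp.

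Genes with regions in 1 direction only included short ones. FASN, fatty acid synthase, the enzyme that builds palmitate, is a known thyroid hormone-responsive gene in rodent liver. It spans 19899 bp on chromosome 17 and had 8 T3-only regions, all with their midpoints inside it, no vehicle-only region and no shared region. The strongest, chr17:82097064-82099402, lay over the end of the gene with the higher coordinate and had signal values of 10.96 and 10.48 in the 2 T3 libraries, a lower percentile of 91.3. The next, chr17:82087082-82088767, had 8.62 and 8.96. The first-library values of all 8 ran from 4.65 to 10.96 with a median of 7.505, and the second from 2.82 to 10.5 with a median of 6.05. The regions with second-library values of 2.82, 3.13 and 3.27 were near the bottom of the list there, at percentiles of 1.32, 3.10 and 5.83. The nearest vehicle region lay 1292 to 20109 bp away. BRG1 was listed at 1 of the 8 in both conditions, and PBRM1 at 3 with T3 and at none with vehicle. TRb with T3 was listed at 1 of the 8, the strongest. FASN lies in the 10 Mb bin of chromosome 17 that had one of the 3 highest T3-only shares, 70.5%.

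LSS, lanosterol synthase of the cholesterol pathway (chromosome 21), had 8 T3-only regions and none in vehicle alone, with 3 shared. Their values ran from 3.52 to 6.70 and from 3.55 to 8.47 in the 2 T3 libraries, with medians of 5.55 and 4.98, below the 7.505 and 6.05 at FASN. The shared regions included one over its promoter window, where BRG1 was listed in both conditions. CEP72, a centrosomal protein gene, PWWP2B, a PWWP-domain protein gene, and TBC1D16, a Rab GTPase activator, had 9 T3-only and no vehicle-only regions each; FLNC, filamin C, and IMPDH1, of guanine nucleotide synthesis, had 7 each. CAPN1, calpain 1, with 6, was the one of these 8 genes outside the 6 chromosomes. It lies on chromosome 11 in the bin of 60 to 70 Mb. T3-only regions were the majority in that bin too, at 59.8% (389 T3-only and 261 vehicle-only).

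SMARCA4, the gene for BRG1 itself, showed the opposite. It spans 101244 bp on chromosome 19, where T3-only regions were only 29.9% of one-condition regions. It had 9 vehicle-only regions and no T3-only region, while the region over its transcription start was shared. At that shared region the 2 T3 libraries had 8.39 and 6.71, and the 2 vehicle libraries 4.47 and 4.46, values that cannot be compared between lists. The 9 vehicle-only regions had 4.28 to 6.00 in the first vehicle library and 3.89 to 6.28 in the second, an even and moderate set, and lay 3097 to 59117 bp from any T3 region. BRG1, PBRM1 and TRb (T3) were listed at none of the 9. MAP4, a microtubule-associated protein gene on chromosome 3, had 12 vehicle-only regions and no T3-only region, with 3.12 to 7.57 and 3.89 to 7.85 in the 2 vehicle libraries. BRG1 was listed at 6 of those 12 with T3 and at 7 with vehicle. KANK4, KLHL29 and RIMBP2 followed with 10 vehicle-only regions each, and CNGB1, DLGAP2 and KSR2 with 9.

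**Figure D4:**
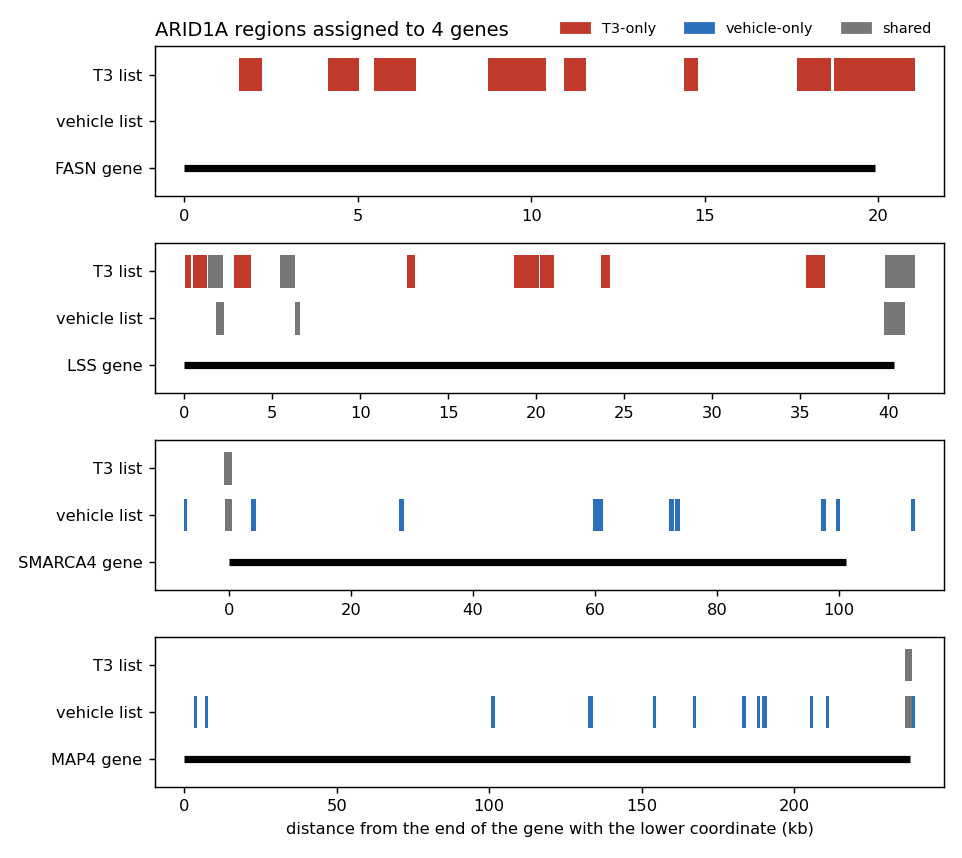
ARID1A regions of the T3 list (upper row of each panel) and the vehicle list (lower row) assigned to FASN, LSS, SMARCA4 and MAP4, placed by distance in kb from the gene end with the lower coordinate; black bars are the genes, and very narrow regions are drawn at a minimum width. FASN has 8 T3-only regions and an empty vehicle row, and SMARCA4 has 9 vehicle-only regions around 1 shared region at its start.

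Among the SWI/SNF genes as a group, 29 subunits, 5 had a net gain (17.2%, against 21.2% of all genes) and 14 a net loss (48.3%, against 30.6%) with T3. An ARID1A region of either list fell to 96.6% of the 29, against 73.6% of all genes. Their regions were 23 T3-only and 60 vehicle-only, a T3-only share of 27.7% (18.4 to 38.6%), against 44.4% over all protein-coding genes and 38.9% once each gene was given the share of its own chromosome; SMARCA4 alone gave 9 of the 60. ARID1A had 0 T3-only and 2 vehicle-only regions, ARID1B, its paralog, 1 and 5, PBRM1 0 and 1, and BCL7A and BCL11B 0 and 5 each.

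Genes of thyroid hormone action had 58 T3-only and 68 vehicle-only regions (46.0%, 37.1 to 55.1%). The interval of this share held the 44.4% of all genes. Of the 22 genes, 3 had a net gain (13.6%, against 21.2% of all genes) and 11 a net loss (50%, against 30.6%). A region fell to 81.8% of the 22, against 73.6% of all genes. RXRA, the receptor that pairs with thyroid hormone receptors, gave 24 of the 58 and 17 of the 68. THRB had 1 and 6, and THRA 2 and 2. The T3-only region of THRB had 6.50 and 4.35 in the T3 libraries, a lower percentile of 33.5. The vehicle-only regions of THRB had 3.03 to 8.77 and 2.69 to 5.48 in the vehicle libraries. Their lower percentiles ran from 0.0184 to 43.2, so some stood near the bottom of the vehicle list. Of the 16 thyroid lineage and hormone synthesis genes, 4 had a net gain (25%) and 8 a net loss (50%). Their T3-only share of 33.3% (20.001 to 48.95%) had an interval that held the 44.4% of all genes. There were 2 and 11 regions at GLIS3 and 1 and 5 at PAX8, both transcription factors of the thyroid.

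T3-only shares in the other lists lay near the background. Genes with a net loss made up 16.7% of the cell cycle list, the lowest, and 54.2% of the TGF-beta, mesenchymal and matrix list, the highest. The SWI/SNF and thyroid lists lay within that range, so their net losses were not particular to them. Hypoxia and glycolysis genes had 34 T3-only and 31 vehicle-only regions (52.3%, 39.5 to 64.9%). VEGFA, the endothelial growth factor, gave 7 and 1 of these. Its T3-only regions had 4.65 to 12.5 in the first T3 library and 3.28 to 5.86 in the second. Their lower percentiles ran from 6.12 to 60.1 in the T3 list, and the vehicle-only region stood at 81.9 in the vehicle list. WNT pathway genes had 53 and 50 (51.5%), with TCF7 at 5 and 1 and WNT7B at 4 and 11. Lipid and cholesterol genes had 32 and 32, FASN giving 8 of the T3-only ones and ACLY 2 and 5. Hippo and TEAD genes had 39 and 53 (42.4%), with TEAD1 at 4 and 13 and TEAD3 at 3 and 0. AP-1 and related factors had 23 and 24 (48.9%). Receptor kinase, RAS-MAPK and PI3K genes had 40 and 63 (38.8%), where EGFR had 2 and 7 and FGFR3 0 and 5. NF-kB and inflammatory genes had 12 and 21 (36.4%), with NFKBIA, the inhibitor of NF-kB, at 0 and 4. Focal adhesion and actin genes had 99 and 117 (45.8%), TNS3, a tensin, giving 22 and 13 and ACTN4, an actinin, 5 and 12. Genes of TGF-beta, mesenchyme and matrix had 46 and 55, epithelial junction and keratin genes 26 and 32, cell cycle genes 17 and 20, lineage factors such as RUNX and SOX 38 and 42, and cytosolic ribosomal protein genes 14 and 21. In each of these lists the interval of the share held the 44.4% of all genes.

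Regions lost and gained close together were common, but no closer than regions that stayed. A vehicle-only region lay within 5 kb of 31.8% of T3-only regions (31.2 to 32.5%), and of 37.6% of the shared regions of the T3 list (37.0 to 38.2%). A T3-only region lay within 5 kb of 24.9% of vehicle-only regions (24.4 to 25.5%), and of 31.6% of the shared regions of the vehicle list (31.0 to 32.2%). The median gap from a T3-only region to the nearest vehicle-only region was 11569 bp, against 9606 bp from a shared region. Neighbours of the same kind were nearer: 36.1% of T3-only regions had another T3-only region within 5 kb, and 36.1% of vehicle-only regions another vehicle-only region. With shared defined by a reciprocal overlap of 50%, the order turned, with the T3-only share 6.86 points above that of shared regions, since partly overlapping regions then count as neighbours.

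Mutually nearest pairs within 5 kb numbered 4854, which took in 25.02% of T3-only regions and 19.2% of vehicle-only regions, at a median gap of 1314 bp. The T3 member lay at the higher coordinate in 51.3% of pairs (49.8 to 52.7%), so there was no common direction along the chromosome. A single BRG1 region covered both members in 11.7% of pairs with T3 and in 11.02% with vehicle. BRG1 with T3 was listed at the T3 member in 42.6% and at the vehicle member in 32.3% of pairs, and BRG1 with vehicle at 46.5% and 35.9%. The T3 member thus had BRG1 more often in both conditions.

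In only 85 pairs were all 4 signal values at or above the median of their lists. Those described here are among the strongest. In MYO9B, a myosin gene, the T3 region chr19:17208730-17209970 (12.2 and 7.24) and the vehicle region chr19:17210082-17210768 (6.19 and 6.99) were 111 bp apart with no BRG1. In DDX47, an RNA helicase gene, the members were 340 bp apart and a single BRG1 region covered both in each condition. In IGF1R, the insulin-like growth factor receptor gene, they were 3437 bp apart and each had BRG1 in both conditions. Other strong pairs lay in TSPEAR and DFFB and near NOL10 and MAT2A. GSE1 held 13 pairs, CDH4 and MAD1L1 11, and CAMTA1 and PTPRN2 10.

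BRG1 and the PBAF subunit were listed at T3-only regions more often than at vehicle-only regions, and far more often at shared ones. BRG1 with T3 was listed at 41.3% of T3-only regions (40.6 to 42.0%), at 26.4% of vehicle-only regions (25.86 to 26.95%) and at 84.8% of shared regions. The vehicle list of BRG1 gave the same order, with 44.9%, 30.2% and 87.6%. BRG1 was in neither of its lists at 50.4% of T3-only regions and at 65.8% of vehicle-only regions, against 10.5% of shared ones. PBRM1 with T3 was listed at 28.8%, 18.02% and 66.2% of the 3 classes, and PBRM1 with vehicle at 7.57%, 4.83% and 23.6%. TRb with T3 was listed at 2.91%, 2.08% and 18.9%. Regions that lay in none of the 6 other lists made up 40.9% of T3-only regions and 58.6% of vehicle-only regions.

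Where BRG1 was listed in 1 condition only, that condition did not follow ARID1A. Of the T3-only ARID1A regions with BRG1 in exactly 1 list, 36.3% had it in the T3 list (34.5 to 38.3%). The share was 33.8% at vehicle-only regions (32.1 to 35.5%) and 28.8% at shared regions. A BRG1 listing was gained with ARID1A at 916 of 19399 T3-only regions (4.72%). It was lost with ARID1A at 1981 of 25284 vehicle-only regions (7.83%). The opposite BRG1 change was found at 1604 T3-only regions (8.27%) and at 1012 vehicle-only regions (4.003%). BRG1 in its vehicle list only was thus about as common at T3-only as at vehicle-only regions. The vehicle list of BRG1 was the longer, with 64289 regions against 55931.

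**Figure D5:**
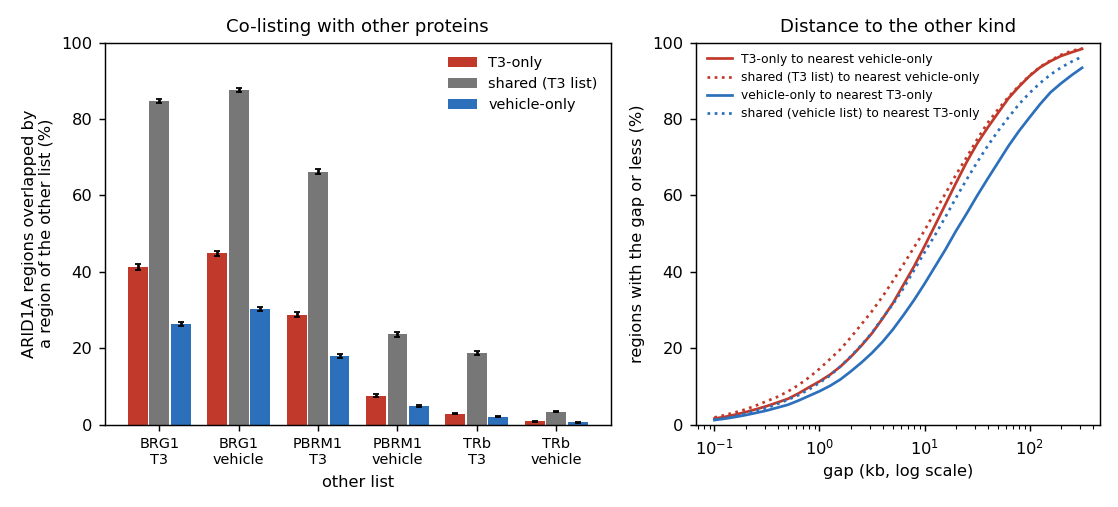
Left, share of T3-only, shared and vehicle-only ARID1A regions (y axis, %) overlapped by a region of each BRG1, PBRM1 or TRb list (x axis), with exact 95% intervals. Right, cumulative share of regions (y axis, %) by gap to the nearest region of the other kind (x axis, kb, log scale); the dotted curves of shared regions lie above the solid curves of one-condition regions at 5 kb.

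The order held within both sets of chromosomes, a split made after the chromosome balance was seen. On the 6 chromosomes BRG1 with T3 was listed at 34.7% of T3-only and 28.4% of vehicle-only regions, and on the other 17 at 45.4% and 25.8%. The difference was thus 6.37 percentage points on the 6 and 19.6 on the others. PBRM1 with T3 was listed at 27.01% and 19.3% on the 6, and at 29.9% and 17.7% on the others.

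T3-only regions were also nearer to transcription starts. Leaving out chromosome 8, 13.7% of T3-only regions (13.2 to 14.2%) had their midpoint within 1 kb of a start, against 9.55% of vehicle-only regions (9.19 to 9.93%) and 34.0% of shared regions of the T3 list. Midpoints inside protein-coding genes were 61.6%, 57.9% and 62.3% of the same classes; exons and introns were not told apart. T3-only regions within 1 kb of either end of a gene exceeded vehicle-only ones by 4.23 percentage points, and by 1.29 points on the 6 chromosomes alone.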

How the data were processed

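The ARID1A CUT&RUN libraries of Nthy-ORI cells numbered 4, 2 per condition. Per the submitters' processing notes the reads were processed with CASAVA 1.7, Trim Galore, Bowtie2 and MACS2 on hg38; no settings are given in the sources used here. The deposited lists hold the peaks of both libraries of a condition, with the authors' signal value per library, −log10 IDR scores deposited for each region, and the intervals of each library. Of the per-sample columns 40 were not used, nor was IgG.

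Regions were overlapped (1 bp or more) with Python 3.11.15, pandas 2.3.3 and numpy 2.4.6, and intervals came from scipy 1.17.1; overlap calls were tested on simulated lists, with 0 wrong calls in 41690. Percentiles are ranks within a list. Genes and promoter windows are RefSeq's, GRCh38.p14. Genes were named by rank (largest net count, most regions in 1 direction, strongest regions and pairs, up to 3 per list, and 6 always), and 16 gene lists, 378 entries, were used. Members and lists were chosen with earlier results of these data known. No design gave a test, so no p-value is given. Intervals cover counting error only, and the sequencing depth is unknown. One gene that met the naming rule is not reported here.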

Additional observations from a re-analysis of the deposited data

How the results depend on the processing

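No paired analysis was possible because each condition has 1 joint list, and no leave-one-out list could be made, since a list holds only peaks found in both libraries. Of 128 values recomputed under other settings, 47 stayed within the main value's 95% interval (or within 1.5 times a count), 79 moved and 2 turned; the causes were not tested except where the setting itself sets the value. The order of the 23 chromosomes was the most stable: rho with the main order ran from 0.90 to 1, and the same 6 chromosomes came first under all 7 settings that redefine the regions. Depth, unknown here, limits which weak regions were listed at all.

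In each setting the values follow one order: T3-only share, vehicle-only share, T3 to vehicle ratio, T3-only regions near a vehicle-only one, vehicle-only regions near a T3-only one, near share of T3-only minus shared regions, then genes and the rest as named. At IDR 0.01 they were 48.8%, 43.4%, 1.07, 16.6%, 19.5% and -4.65 points, with 180 losing genes, 74.7% T3-only on chromosome 20, 35.85% on X and 12 chromosomes over 50%. The differences between T3-only and vehicle-only regions were then 16.1 points for BRG1, 1.42 for TRb and 5.54 for gene ends. With lists of equal length they were 49.4%, 47.15%, 1.0, 26.7% and 27.1%, with 416 gaining and 365 losing genes, 71.6% on chromosome 20, 34.4% on X, 10 chromosomes over 50% and 9.78 points for PBRM1.

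With 50% reciprocal overlap they were 66.3%, 71.3%, an unmoved ratio, 57.9%, 50.2% and 6.86 points, with 168 gaining genes, 56.8% on chromosome 20, 31.4% on X, and 11.4, 8.19 and 2.96 points for BRG1, PBRM1 and gene ends. With gaps up to 500 bp shared they were 39.99%, 45.3%, an unmoved ratio, 22.5%, 17.1% and -4.18 points, with 64.8% on chromosome 20 and 16.2 points for BRG1. With the first library's intervals the shares were 47.4%, 52.5%, 32.8% and 25.8%, and with the second library's 47.9%, 53.0%, 33.75% and 26.6%. Keeping regions at or above the median in both libraries gave 47.6%, 52.3%, 0.871, 14.04%, 11.7% and -4.84 points, 79 gaining and 158 losing genes, 60.03% on chromosome 20, 32.1% on X, and 9.25, 8.001, 1.38 and 4.96 points for BRG1, PBRM1, TRb and gene ends.

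Limits of 2 and 10 kb gave 17.8% and 46.7% of T3-only regions near a vehicle-only one, 14% and 36.9% the other way round, and -4.11 points at 10 kb. Asking for 4 regions gave 113 gaining and 257 losing genes. In a split chosen after seeing the data, the 6 chromosomes held 151 gaining and 60 losing genes, with 6.37, 7.76, 0.495 and 1.29 points for BRG1, PBRM1, TRb and gene ends, and the other 17 held 124 gaining genes, with 19.6, 12.3 and 6.30 points for BRG1, PBRM1 and gene ends.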
